A study of Mus musculus with 26 samples.

Results

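The 10 mouse genes Igf2, Igf2r, H19, Dlk1, Meg3, Mest, Peg3, Plagl1, Cdkn1c and Zdbf2 were followed across all the libraries of an RNA-seq study of brown preadipocytes. They were chosen by name as imprinted genes that act on growth, and all 10 symbols had a row among the 52962 genes of the deposited table. An imprinted gene is active from the maternal or from the paternal copy alone, and methylation set down in the germ line tells the 2 copies apart. Paternally expressed genes of the set, such as Igf2 and Dlk1, mostly promote fetal growth, while maternally expressed ones, such as Igf2r, H19 and Cdkn1c, mostly restrain it. The counts do not separate the 2 parental copies, so they measure the level of each transcript and not its imprint.

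The cells came from newborn mice with floxed insulin receptor (IR) and IGF1 receptor (IGF1R) genes, were immortalised with SV40 T antigen, and lost both receptors through an adenovirus carrying GFP-tagged Cre. The resulting DKO cells were compared with cells of the same background that carried a FLAG-tagged human receptor from a retrovirus. IR cells carried the normal receptor of the B isoform, K1030R cells a kinase-dead receptor, ∆CT cells a receptor without its C-terminal tail, and JMO cells a receptor cut off inside the juxtamembrane segment, with no kinase domain. All cells were starved of serum for 6 h, and cells of the insulin libraries then received 100 nM insulin for 15 min. DKO cells were sequenced without insulin in 3 libraries, IR, K1030R and JMO cells in 3 libraries with and 3 without insulin, and ∆CT cells in 3 without and 2 with insulin, which gave 26 libraries in 9 groups. Each receptor variant was 1 stable line and cells with their own receptors were not part of the comparison, so a difference between variants cannot be told apart from a difference between lines. The labels do not say that the libraries of a group came from separate cultures, and p-values then measure only the spread between these libraries.

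Libraries held 17228982 to 24694828 counts. Of 8 preadipocyte and mesenchymal markers, Col1a1, Pdgfrb and Pdgfra had median levels of 6097, 592 and 220 CPM (counts scaled to the size of each library), Thy1, Cd34 and Ly6a of 24.8, 11.0 and 4.02 CPM, and Dpp4 and Zfp423 were near the detection limit (0.108 and 0.0686 CPM). The brown lineage factor Zic1 stood at 122 CPM, Ebf2, Prdm16 and Lhx8 were near the limit (0.163, 0.0422 and 0.0481 CPM), and Ucp1 had 1 count in all libraries. Of 6 adipocyte genes, Pparg was at 4.44 CPM, Fabp4 had 1019 counts in all, Plin1 was at 0.0999 CPM, Adipoq had 3 counts in all, and Cidec and Lep had none. Among markers of other cell types, the endothelial Pecam1 was at 11.3 CPM, the myoblast Des at 2.84 and the macrophage Cd68 at 2.16. The endothelial Kdr and Tek were near the limit (0.154 and 0.129 CPM), and Myod1, Myf5 and the macrophage Adgre1 had no count. The epithelial Krt8 was at 0.288 CPM. The summed level of the 8 preadipocyte markers, most of it Col1a1, was 3996 to 4277 CPM in DKO libraries, 4559 to 4597 in unstimulated JMO, 6724 to 7095 in K1030R, 6972 to 7426 in ∆CT and 7616 to 8531 in IR libraries. The summed level of the 6 adipocyte genes was 6.88 to 7.41 CPM in DKO, 8.23 to 10.1 in JMO, 6.63 to 7.40 in K1030R, 5.02 to 6.14 in ∆CT and 3.25 to 3.95 in IR libraries without insulin. Both sums move with the lines, as several genes described here do, and their part in those differences was not tested. Of the 6 preadipocyte markers tested, 4 were higher and 1 lower than in DKO by more than 1.5-fold in IR cells. These numbers were 3 and 1 in K1030R and in ∆CT cells, and 1 and 1 in JMO cells, so the sum does not stand for each marker. Of all genes tested, 3.6% were higher and 3.29% lower in IR, 2.04% and 3.25% in K1030R cells. The shares were 2.38% and 3.91% in ∆CT, and 1.38% and 0.734% in JMO cells. In bulk RNA, fewer expressing cells and less RNA per cell cannot be told apart.

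Of the 10 genes, 4 passed the filter on low values (over 0.5 CPM in at least 4 libraries). Plagl1 had 41567 counts over all libraries, Igf2r 24997, Mest 970 and Igf2 188. Igf2 exceeded 0.5 CPM in 9 libraries, all of them DKO or JMO, so it entered the test through the groups where it was high. Per kilobase of merged exons, the median level over all libraries was 9.91 CPM per kb for Plagl1, 5.54 for Igf2r, 0.446 for Mest and 0.0257 for Igf2.

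Igf2r, Plagl1 and Mest were each lower in DKO cells than in the receptor lines, and the RefSeq starts of these genes (GRCm38.p6) are shown for that reason. Capitals mark CpG dinucleotides, the kind of site that imprinting methylates. Methylation was not measured, and whether these stretches carry the imprint of their gene was not tested. The window is the 250 bases before a start, shortened for Plagl1 to the 109 bases that precede the first annotated exon. The lines give Igf2r at chr17:12769707-12769956 on the minus strand, Plagl1 at chr10:13090582-13090690 on the plus strand, and Mest at chr6:30737800-30738049 on the plus strand.
Igf2r: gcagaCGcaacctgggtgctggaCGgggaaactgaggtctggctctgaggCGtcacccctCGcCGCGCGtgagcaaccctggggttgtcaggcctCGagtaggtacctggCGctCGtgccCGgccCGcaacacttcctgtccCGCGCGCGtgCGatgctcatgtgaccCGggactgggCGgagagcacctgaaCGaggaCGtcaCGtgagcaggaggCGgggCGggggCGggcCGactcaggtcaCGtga
Plagl1: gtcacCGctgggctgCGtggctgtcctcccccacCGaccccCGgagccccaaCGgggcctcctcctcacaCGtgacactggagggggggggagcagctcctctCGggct
Mest: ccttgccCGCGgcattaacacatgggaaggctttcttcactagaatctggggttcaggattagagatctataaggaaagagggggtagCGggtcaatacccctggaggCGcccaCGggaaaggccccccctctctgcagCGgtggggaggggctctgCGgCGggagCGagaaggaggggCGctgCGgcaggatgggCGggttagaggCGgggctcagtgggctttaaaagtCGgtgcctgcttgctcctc
The Igf2r stretch has 27 CpGs, which lies at or above the number in 92.4% of all 32851 RefSeq windows of 250 bases, and the median window has 6. It lies outside the exons of Igf2r and in an intron of Airn, the antisense noncoding RNA that silences the paternal Igf2r copy. The Mest stretch has 14 CpGs, at or above the number in 72.7% of all windows, and lies in an intron of 4 longer Mest transcripts. It was picked from the Mest starts for its CpG count, and the window of the upstream start (chr6:30733256-30733505) has 7. The Plagl1 stretch has 7 CpGs and lies in an intron of 1 longer Plagl1 transcript. The letters TGCCGC, which the imprint-protecting factor ZFP57 can bind, occur on either strand 2 times in the Mest stretch. They do not occur in the window of the upstream Mest start. They are absent from the Igf2r stretch and from the shortened Plagl1 stretch. The full 250-base Plagl1 window has 19 CpGs and holds the letters 1 time. Of all 250-base windows, 8.7% hold them at least 1 time and 0.9% hold them 2 times or more.

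Igf2r encodes the cation-independent mannose 6-phosphate receptor, which takes IGF2 from the cell surface to the lysosome and is expressed from the maternal copy (GRCm38 chr17:12682406-12769664, minus strand). The 3 DKO libraries held it at 19.1, 16.3 and 17.7 CPM. Unstimulated IR libraries held 61.4, 61.0 and 59.9 CPM. K1030R libraries held 52.9, 53.1 and 55.1 CPM, and JMO libraries 40.3, 40.9 and 40.7 CPM. The ∆CT libraries, at 49.4, 50.8 and 57.9 CPM, overlapped those of K1030R. No library of a receptor line came near the DKO range, and JMO libraries lay between DKO and the other lines. Igf2r was called higher than in DKO by more than 1.5-fold in every line, with a fold of 3.43 (IR, log2 1.78 ± 0.06, SE), 3.03 (K1030R, 1.60 ± 0.06), 2.97 (∆CT, 1.57 ± 0.06) and 2.29 (JMO, 1.20 ± 0.06).

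Plagl1 encodes ZAC1, a zinc-finger transcription factor that restrains cell division and regulates other imprinted genes (chr10:13060504-13131694, plus strand, paternal copy). It was measured at 45.9, 47.5 and 50.8 CPM in DKO libraries. IR libraries held 105, 101 and 103 CPM, K1030R libraries 74.3, 85.6 and 79.0 CPM, and ∆CT libraries 74.1, 74.3 and 88.2 CPM. The 3 JMO libraries were close together at 68.6, 67.7 and 69.5 CPM. DKO libraries were lowest and IR libraries highest, with no overlap, and K1030R and ∆CT overlapped each other. The fold against DKO was 2.14 in IR (log2 1.10 ± 0.05), 1.66 in K1030R (0.73 ± 0.05) and 1.64 in ∆CT cells (0.71 ± 0.05), all called. The ∆CT call was at the threshold (adjusted p against the minimum fold 0.0478) and was lost in 19 of the 26 fits that left out 1 library. The K1030R call was lost without DKO library 1 (adjusted p 0.174), DKO library 2 (0.0881) or K1030R library 2 (0.299), and both calls were lost with DESeq2 and limma. JMO cells exceeded DKO by 1.42-fold (0.51 ± 0.05), a difference from 0 (adjusted p 3.237e-09) that did not pass the minimum fold.

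Mest, a paternally expressed gene for an enzyme of the alpha/beta hydrolase family that is linked to fat cell size, had few counts, 11 to 80 in a library (chr6:30723547-30748465, plus strand). DKO libraries held 0.598, 0.796 and 0.440 CPM. IR libraries held 3.42, 2.99 and 2.96 CPM, ∆CT libraries 2.04, 2.20 and 1.97 CPM, and K1030R libraries 1.84, 1.86 and 1.5 CPM. Unstimulated JMO libraries, at 1.18, 1.53 and 1.69 CPM, overlapped K1030R and stayed above every DKO library. With insulin, JMO library 1 was at 0.788 CPM, below DKO library 2. The fold against DKO was 5.22 in IR (log2 2.38 ± 0.22), 3.45 in ∆CT (1.79 ± 0.23) and 2.89 in K1030R cells (1.53 ± 0.24), all called. In JMO cells the fold was 2.43 (1.28 ± 0.25), which differed from 0 (adjusted p 8.955e-05) but missed the minimum fold (adjusted p 0.05045), and 11 of the 26 fits without 1 library called it. DESeq2 did not call the K1030R difference (adjusted p 0.102). The exons of Mest share 912 bases with Copg2 on the opposite strand, a gene with 25296 counts. Copg2 was higher by log2 0.29 to 0.50 against DKO in the 4 lines without passing the minimum fold, and the strand setting of the counting is not given in the sources used here.

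**Figure D1:**
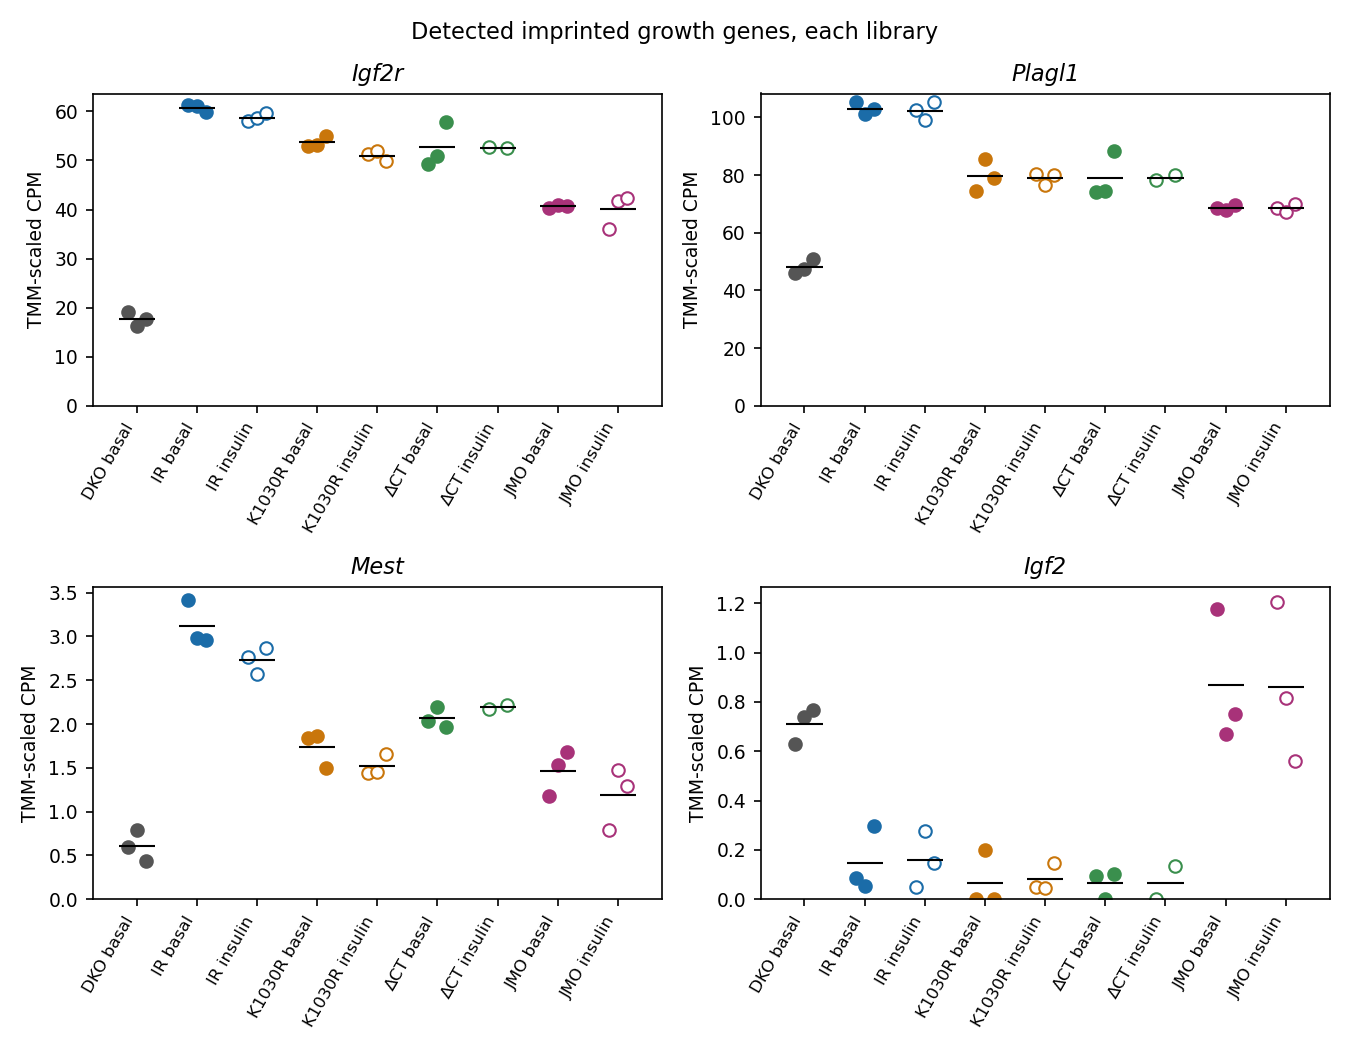
Level of the 4 detected genes in every library, in TMM-scaled CPM on the y axis, for the 9 groups on the x axis. Filled points are unstimulated libraries, open points are insulin libraries and bars are group means. For Igf2r and Plagl1 the 3 DKO libraries sit below all others, and for Igf2 the DKO and JMO libraries sit above all others.

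Igf2 is the paternally expressed growth factor that binds the IGF1 receptor and the A isoform of IR (chr7:142650766-142666816, minus strand). Its level was very low, and it went the other way in IR, K1030R and ∆CT cells, below DKO. DKO libraries held 11.6, 13 and 19.2 counts (0.629, 0.739 and 0.769 CPM), and JMO libraries held 29, 13.2 and 15.1 counts (1.18, 0.672 and 0.751 CPM). IR libraries held 2, 1 and 6 counts, K1030R libraries 0, 4 and 0, and ∆CT libraries 2, 0 and 2. The DKO and JMO libraries overlapped, and each of them was above every IR, K1030R and ∆CT library. Igf2 was called lower than in DKO cells in IR (log2 fold change -2.26 ± 0.59, a 4.80-fold difference), K1030R (-3.23 ± 0.69) and ∆CT cells (-3.33 ± 0.69). Igf2 entered this test through the DKO and JMO libraries, and a refit of the same counts cannot undo that. In the fit without the filter the log2 values were -2.26, -3.23 and -3.32. The p-values of that fit are not comparable with those here, and those of Igf2 are not given. For Igf2r in IR against DKO cells, edgeR with no minimum fold gave p 3.305e-216 without the filter and 8.413e-26 with it. JMO and DKO cells did not differ detectably (0.28 ± 0.42, adjusted p 0.661). The IR call was lost without DKO library 2, DKO library 3, IR library 1 or IR library 2 (adjusted p against the minimum fold 0.0565, 0.0733, 0.146 and 0.128) and with limma or DESeq2 (0.0538 and 0.286), DESeq2 also lost the K1030R call (0.0579), and the log2 value in IR was -3.22 without IR library 3. All 4 K1030R counts were in library 2, and without it K1030R cells were at 0, at least 8.60-fold below DKO at the floor of 3 counts over the other 2 libraries, while the ∆CT value was -2.79 without ∆CT library 2. Igf2 shares 3596 exon bases with Gm49394 on the same strand, a gene with 4.4 counts, so reads of the overlap could be split between them.

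The 4 comparisons with DKO shared the same 3 DKO libraries and were made with edgeR. Of the 10 genes, the 4 that passed the filter were tested. Of these 4, 3 were called higher and 1 lower in IR cells, where 3.6% of all 15402 genes tested were called higher and 3.29% lower. The count was also 3 higher and 1 lower in K1030R cells (2.04% and 3.25% of all genes) and in ∆CT cells (2.38% and 3.91%). In JMO cells 1 gene, Igf2r, was called higher and none lower (1.38% and 0.734%). Of the 4 genes tested there, 3 differed from 0, where 34.3% of all genes tested did. The gene counted as lower was Igf2 each time, and it failed the filter when a receptor line other than JMO was fitted with DKO alone. The plot of fold changes against DKO shows these values side by side.

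**Figure D2:**
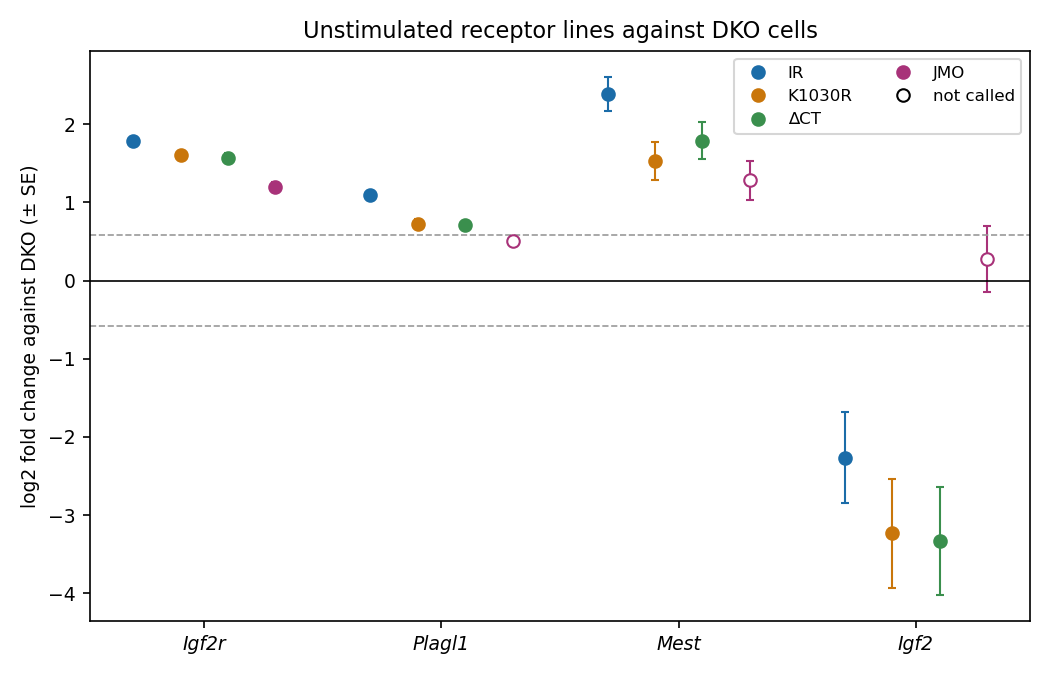
Log2 fold change against DKO cells on the y axis, with its standard error, for the 4 detected genes on the x axis in the 4 unstimulated receptor lines. Filled points passed the 1.5-fold minimum marked by the dashed lines, and open points did not. Igf2r lies between 1.20 and 1.78 in all lines, while Igf2 is at -2.26 or lower in IR, K1030R and ∆CT and at 0.28 in JMO.

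Comparisons among the receptor lines asked how the genes differed with the part of the receptor that was left. JMO against IR cells called Igf2 higher (log2 2.54 ± 0.56) and Mest lower (-1.10 ± 0.19), where 2.65% of all genes were called higher and 1.94% lower. The Igf2 call was lost without IR library 1, IR library 2 or JMO library 1 (adjusted p 0.0739, 0.0612 and 0.0762), and the Mest call without IR library 1 or JMO library 1 (0.117 and 0.223). DESeq2 called neither gene, limma did not call Mest (0.0628), and without IR library 3 the Igf2 value was 3.51. Igf2r and Plagl1 were lower in JMO than in IR cells by log2 0.58 ± 0.05 and 0.59 ± 0.05, which differed from 0 (adjusted p 2.35e-11 and 1.214e-11) without passing the minimum fold. Against K1030R and against ∆CT cells, Igf2 was the gene called higher in JMO (3.51 ± 0.67 and 3.61 ± 0.66), where 2.79% and 3.42% of all genes were called higher. Without K1030R library 2 the Igf2 level of K1030R cells was at least 10.5-fold lower than in JMO cells, and without ∆CT library 2 the value against ∆CT was 3.07. Without the filter the Igf2 value, from the same counts, was 2.53 against IR, 3.50 against K1030R and 3.59 against ∆CT. In that fit Mest was not called against IR (adjusted p against the minimum fold 0.05993). With only the compared groups in the fit, Igf2 failed the filter in all 3 comparisons and was not tested. With no minimum fold, 4 of the 4 genes tested differed from 0 in JMO against IR, 3 against K1030R and 4 against ∆CT cells. Of all genes tested, 42.4%, 35.4% and 38.8% did. These comparisons share the JMO libraries.

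K1030R and ∆CT cells each had 0 of the 4 tested genes called against IR cells (1.04% and 0.708% of all genes called). edgeR found 3 of them at an unadjusted p under 0.05 in each comparison, and DESeq2 and limma called 0. These 3 were Igf2r, Plagl1 and Mest, all lower than in IR cells without passing the minimum fold, where 16.3% and 14.8% of all genes were lower at an adjusted p under 0.05 with no minimum. Mest was lower by log2 0.85 ± 0.19 in K1030R and 0.60 ± 0.18 in ∆CT cells (adjusted p 0.0005572 and 0.01242), Plagl1 by 0.37 ± 0.05 and 0.39 ± 0.05 (5.652e-07 and 3.525e-07), and Igf2r by 0.18 ± 0.05 and 0.21 ± 0.05 (0.00733 and 0.002261). ∆CT against K1030R called 0 genes with edgeR, DESeq2 or limma, with 0 at an unadjusted p under 0.05 (0.039% of all genes called). In the order of unstimulated levels of Igf2r and Plagl1, IR stood above K1030R and ∆CT, which did not differ beyond their spread, followed by JMO and then DKO, and each of the other steps differed from 0. For Mest the order was IR, ∆CT, K1030R, JMO and DKO, where ∆CT and K1030R (adjusted p 0.576) and K1030R and JMO (0.372) did not differ beyond their spread.

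Insulin for 15 min asked whether these transcripts respond to short receptor activation. Of the 4 genes tested, 0 were called in each of the 4 lines with edgeR, DESeq2 and limma. In edgeR, 0 had an unadjusted p under 0.05 (of all genes, IR cells had 0.221% called, ∆CT cells 0.214%, JMO cells 0.039% and K1030R cells 0%). The insulin difference of Igf2r was log2 -0.07 ± 0.05 in K1030R, -0.05 ± 0.05 in IR, -0.03 ± 0.05 in JMO and 0.00 ± 0.06 in ∆CT cells. That of Plagl1 lay within log2 -0.01 and 0.01 with SE of 0.05 to 0.06. Mest, with fewer counts, had wider errors, from -0.30 ± 0.22 in JMO to 0.09 ± 0.21 in ∆CT cells. Igf2 had 10 counts with and 9 without insulin in IR, 5 and 4 in K1030R, and 52 and 57.3 in JMO cells. The insulin effect was compared between lines over 6 pairs with no minimum fold, and 0 of the 4 genes tested passed in each, with 0 at an unadjusted p under 0.05 in edgeR. Of all genes, 0.416% passed for ∆CT against K1030R, 0.37% for K1030R against IR, 0.279% for JMO against IR, 0.26% for JMO against ∆CT, 0.026% for JMO against K1030R and 0.00649% for ∆CT against IR cells.

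The remaining 6 genes were too low to test. H19, the maternally expressed noncoding RNA next to Igf2, and Cdkn1c, which encodes the cell cycle inhibitor p57, had 0 counts in all 26 libraries, which allows up to 0.00567 CPM over the 528949320 counts, counting error only. Dlk1, which encodes the preadipocyte factor PREF1, had 13 counts in all and at most 1.5 in a library, and its values equal those of 1 further row without a symbol, so its reads may have been divided. Peg3, a paternally expressed zinc-finger gene, had 6 counts in 3 libraries, and Zdbf2 had 8 counts in 6 libraries. These genes were at or near the limit in every group, and no direction can be read from them.

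Meg3, the maternally expressed noncoding RNA of the Dlk1 domain, was the most abundant of the 6, with 99.3 counts in 24 libraries. It held 5.5, 4 and 7 counts in DKO libraries, 0, 2 and 6 in IR, 5, 3 and 2 in K1030R, 2, 5 and 2 in ∆CT and 4, 4 and 3 in JMO libraries without insulin. The groups overlapped. In a fit without the filter on low values, its log2 fold change against DKO was -0.97 in IR, -0.78 in ∆CT, -0.60 in JMO and -0.52 in K1030R cells (adjusted p 0.423, 0.57, 0.66 and 0.737).

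**Figure D3:**
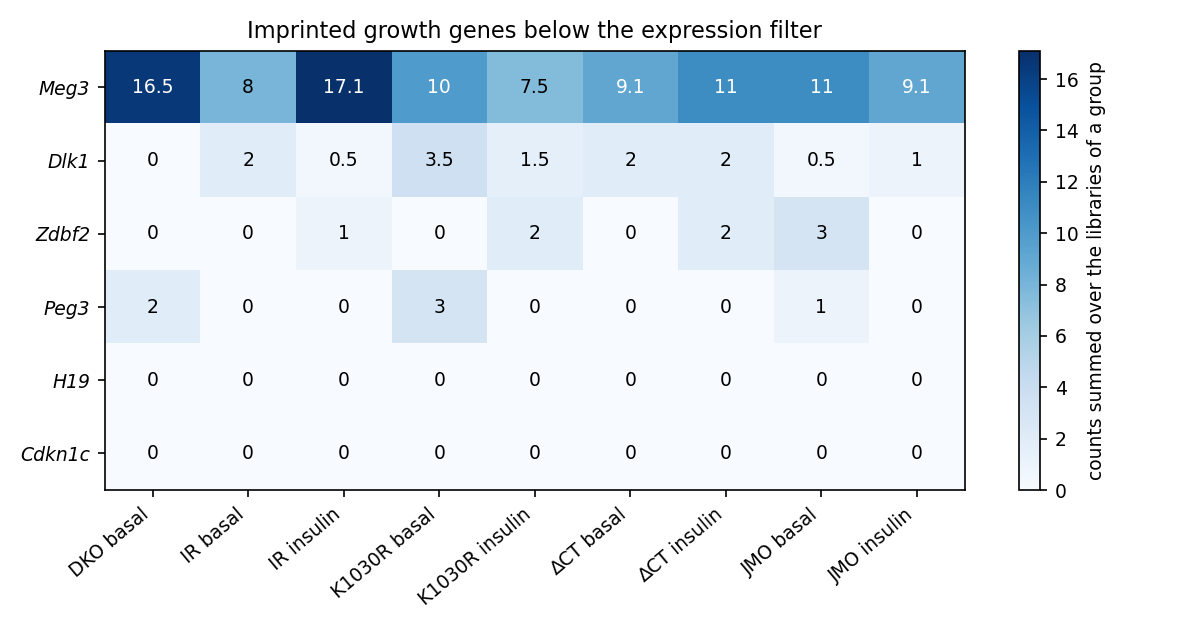
Counts summed over the libraries of each group (x axis) for the 6 genes below the filter (y axis). Meg3 ranged from 7.5 to 17.1 counts in a group, Dlk1, Zdbf2 and Peg3 had at most 3.5, and H19 and Cdkn1c had 0 throughout.

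Among 64 other imprinted genes with a row, 32 passed the filter and 7 had no count. In IR, K1030R and ∆CT cells 5 of the 32 were called higher and 1 lower than in DKO, and in JMO cells 3 were higher and none lower. Over all genes, 3.6% were called higher and 3.29% lower in IR, 2.38% and 3.91% in ∆CT, 2.04% and 3.25% in K1030R, and 1.38% and 0.734% in JMO cells. The median log2 fold change of the 32 was 0.20 in K1030R, 0.19 in ∆CT, 0.18 in IR and 0.04 in JMO cells, beside 0.01 over all genes tested in each comparison. Peg10, a retrotransposon-derived gene needed in the placenta, rose from 23.7 ± 1.36 CPM (SD, n = 3) in DKO to 73.5 ± 1.88 in ∆CT, 71.1 ± 0.464 in K1030R, 67.1 ± 3.80 in IR and 40.7 ± 0.476 in JMO cells, where DESeq2 did not call it (adjusted p 0.139). Grb10, an adaptor that binds the insulin receptor and restrains growth, rose from 127 ± 1.67 CPM to 291 ± 5.17 in IR, 285 ± 3.31 in ∆CT and 257 ± 7.45 in K1030R cells. In JMO cells Grb10 stood at 149 ± 2.67 CPM, which did not pass the minimum fold. Slc38a4, an amino acid transporter, rose in all 4 lines (log2 1.12, 1.15, 1.31 and 0.83), as did Adam23 of the Zdbf2 domain (1.08, 0.95, 1.14 and 1.05, in the order IR, K1030R, ∆CT and JMO). Airn, which overlaps Igf2r on the opposite strand without sharing exon bases, rose from 3.71 ± 0.338 CPM in DKO to 7.10 ± 0.676 in ∆CT, 7.35 ± 0.446 in K1030R and 7.98 ± 1.69 in IR cells, and was at 4.29 ± 0.761 in JMO cells (log2 0.19 ± 0.15, not called). The Airn calls of K1030R and ∆CT did not hold without single libraries (3 and 4 of the 26 fits) or with limma (adjusted p 0.208 and 0.319), and DESeq2 called Airn in none of the 3 lines (0.0569 in IR, 0.468 in K1030R and 0.732 in ∆CT). Sfmbt2, a paternally expressed polycomb-related gene, fell from 2.46 ± 0.492 CPM in DKO to 0.498 ± 0.0632 in ∆CT, 0.683 ± 0.114 in K1030R and 0.686 ± 0.125 in IR cells, and was at 1.68 ± 0.166 in JMO cells. Tested directly, JMO cells were below IR cells for Grb10 (log2 -0.96 ± 0.03) and Peg10 (-0.72 ± 0.04) and above them for Sfmbt2 (1.28 ± 0.27), each past the minimum fold, while Airn was lower by 0.90 ± 0.13 and missed it (adjusted p 0.0611).

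Of 20 genes that set, protect or erase imprints, 18 were tested, among them the DNA methyltransferases and ZFP57. Tet1, which oxidises methylated cytosine, was the 1 gene of the 18 called, higher in IR (log2 1.43 ± 0.09), ∆CT (1.19 ± 0.09) and JMO cells (1.11 ± 0.09). Of all genes tested, 3.6%, 2.38% and 1.38% were called higher in these lines. In K1030R cells its difference was 0.72 ± 0.09 (adjusted p against the minimum fold 0.318). The median of the 18 was log2 0.11, 0.11, 0.05 and -0.01 in IR, K1030R, ∆CT and JMO cells.

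Relatives of the 10 genes and genes that handle IGF2 were followed in the same way. Of the 5 relatives, 2 were called lower in IR and 1 higher in JMO cells, beside 3.29% and 1.38% of all genes tested. Plag1, a relative of Plagl1 that can activate the Igf2 promoter, fell in IR cells from 19.4 ± 1.06 to 11.3 ± 0.641 CPM (log2 -0.79 ± 0.08). The Plag1 call was lost without DKO library 2, DKO library 3 or IR library 2 (adjusted p 0.0925, 0.101 and 0.149), with DESeq2 (0.47) or limma (0.108), without the filter on low values (0.07) and with the insulin libraries (log2 -0.62, adjusted p 1). Plag1 was also lower in K1030R (-0.72 ± 0.08), ∆CT (-0.68 ± 0.08) and JMO cells (-0.38 ± 0.08), which differed from 0 without passing the minimum fold, and K1030R and ∆CT cells did not differ detectably from IR cells (adjusted p 0.597 and 0.382). Dlk2, a relative of Dlk1, fell from 3.03 ± 0.280 to 1.11 ± 0.261 CPM in IR cells, and was lower by log2 0.83 ± 0.21 in K1030R and 0.77 ± 0.21 in ∆CT cells without passing the minimum fold. Cdkn1a, which encodes the cell cycle inhibitor p21, was called higher in JMO cells alone of the 4 comparisons with DKO (73.1 ± 3.08 against 41.6 ± 2.14 CPM, log2 0.81 ± 0.05). Plagl2 and Cdkn1b were not called in any of these comparisons.

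Of the 7 genes for IGF ligand, receptors and IGF2 RNA-binding proteins, Igf1 and Insr were called. Igf1 rose from 3.46 ± 0.101 CPM in DKO to 12.2 ± 0.178 in ∆CT, 13.8 ± 0.891 in K1030R and 21.9 ± 1.15 in IR cells, and stood at 6.46 ± 0.836 in JMO cells, where it missed the minimum fold (adjusted p 0.0875). JMO cells were below IR cells for Igf1 by log2 1.77 ± 0.09, past the minimum fold. Insr rose from 23.8 ± 1.33 CPM to between 67.7 and 78.4 CPM in the 4 lines, all of which carry a human receptor that the mouse transcriptome does not list. How far reads of the human receptor entered this row was not tested. M6pr, the other mannose 6-phosphate receptor, was lower than in DKO by log2 0.40 in IR, 0.36 in ∆CT, 0.19 in K1030R and 0.18 in JMO cells, none past the minimum fold.

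**Figure D4:**
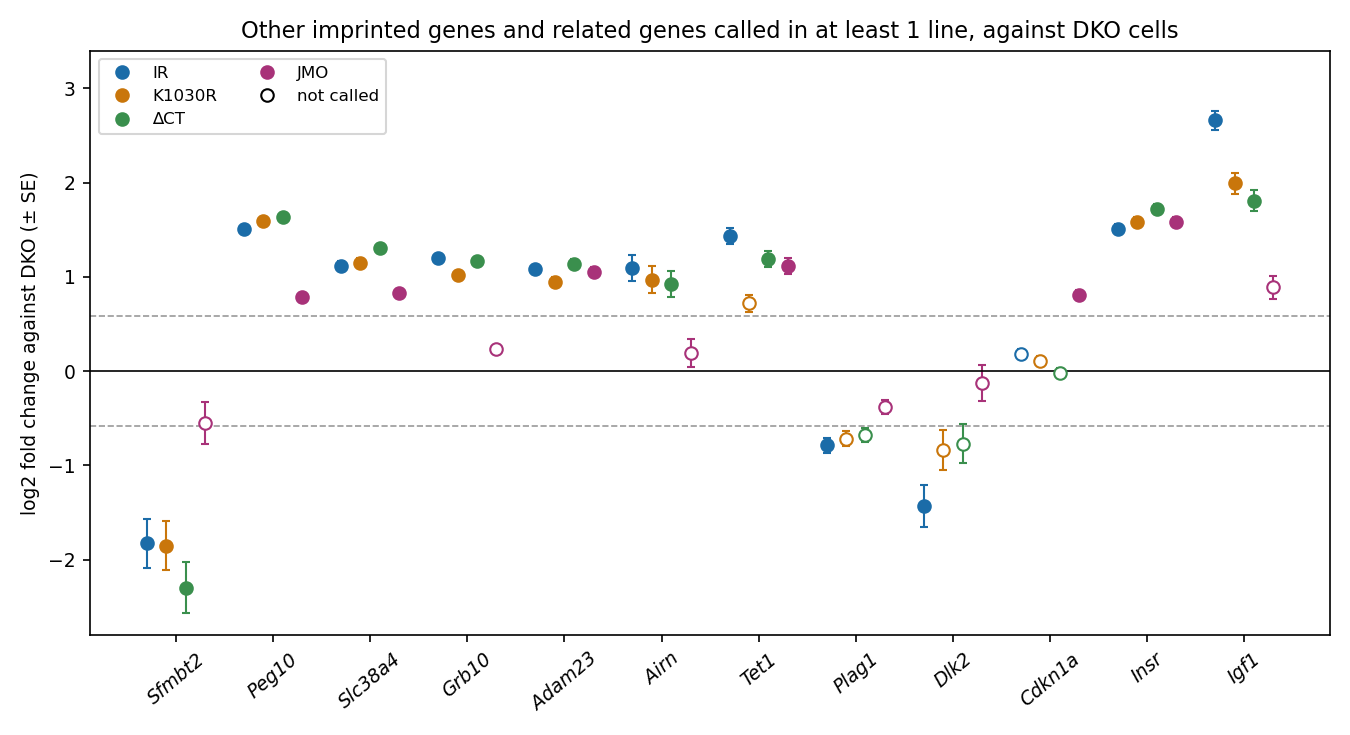
Log2 fold change against DKO cells with its standard error (y axis) for the 12 other imprinted, imprint maintenance, related and IGF2-handling genes called in at least 1 receptor line (x axis). Dashed lines mark the 1.5-fold minimum and open points did not pass it. Grb10, Airn, Sfmbt2 and Igf1 passed it in IR, K1030R and ∆CT and not in JMO cells.

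The genes whose 9 group means followed each of the 4 most closely were sought among 2526 genes that spanned at least 1 on the log2 scale. Nearest to Igf2r were Fzd4 (Pearson r 0.996), Pappa2 (0.995) and Sema3d (0.988). Nearest to Plagl1 were Itm2a (0.993), Lama2 (0.993) and Ndnf (0.992). Mest was followed by Pcdhb21 (0.99), Smoc2 (0.989) and Ccn3 (0.987), and Igf2 by H2-Q4 (0.995), Sema3c (0.995) and Psmb9 (0.995). These values are descriptions over 9 points that share the DKO level and the cell lines.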

How the data were processed

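Poly(A) RNA was sequenced as reverse-stranded single-end reads, and the authors trimmed reads with fastp, assigned them with kallisto to the Ensembl mouse transcriptome and summed them to genes with tximport. The deposited values are estimated counts per gene (79.9% whole numbers), which were rounded here. Genes over 0.5 CPM in at least 4 libraries (15402) were scaled by TMM and fitted in edgeR 4.0.16 (R 4.3.3) with 1 quasi-likelihood model for all 26 libraries. A call means a Benjamini-Hochberg adjusted p under 0.05 against a minimum fold of 1.5 (glmTreat). A difference from 0 means an adjusted p under 0.05 without that minimum. Standard errors were taken from the F statistic. limma 3.58.1 and DESeq2 1.42.0 were alternatives, and the edgeR steps were tested on simulated data. Gene symbols were found for 51916 IDs. The members and lists were chosen with earlier results of these data known. Named beyond the 10 members are list genes called in at least 1 comparison with DKO, and, for each detected member, the 3 genes with the nearest group means. RefSeq promoter windows (GRCm38.p6) were found for 8 members, and positions are from GENCODE (GRCm38). Intervals and floors cover counting error only.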

Additional observations from a re-analysis of the deposited data

Results flagged for a closer look

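The insulin effect on Insr differed between lines by a test of the difference itself in edgeR. It was lower in K1030R than in IR cells (log2 difference -0.43, adjusted p 6.613e-05), lower in JMO than in IR cells (-0.289, adjusted p 0.02936) and higher in ∆CT than in K1030R cells (0.381, adjusted p 0.001102). Insr went from 67.7 ± 1.70 to 87.5 ± 2.35 CPM (SD, n = 3) with insulin in IR cells (log2 0.37 ± 0.05, SE). The change was from 78.4 ± 3.61 to 98.1 ± 2.35 CPM in ∆CT cells (n = 3 and 2). It was from 71.1 ± 5.21 to 68.2 ± 2.37 CPM in K1030R cells and from 71.0 ± 2.81 to 75.3 ± 2.10 CPM in JMO cells. The part of human receptor reads in these values was not tested.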

How the results depend on the processing

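Without the minimum fold, the count among the 4 genes tested was 4 for JMO against IR (42.4% of all genes) and 3 for JMO against DKO (34.3%). For JMO against K1030R the count was 3 (35.4%), and for JMO against ∆CT it was 4 (38.8%). For K1030R and for ∆CT against IR the count was 3, all lower, where 16.3% and 14.8% of all genes were lower. With an adjusted p threshold of 0.001 it was 1 for K1030R against DKO, 2 for ∆CT against DKO, and 0 for JMO against IR and against K1030R. DESeq2 gave 1 for K1030R against DKO and 0 for JMO against IR. JMO against IR gave 1 with limma, 1 without the filter on low counts and 1 with only the groups compared. With only the groups compared, Igf2 failed the filter wherever it had to pass in more libraries than 1 group holds, and the count was 2 for ∆CT against DKO and 0 for JMO against K1030R and against ∆CT. Leaving out 1 library at a time gave 1 to 2 for JMO against DKO and 0 to 2 for JMO against IR, and no other count moved by more than 1.5 times. Over these 26 fits, 41 of the single-gene calls were lost and 13 gained, against 2127 that kept direction and side of the threshold. For any comparison, most of these fits left out a library of a group outside it. Such a fit can act only through the shared spread, scaling and filter, so the 2127 do not measure how firm the calls are. The sign turned for Cdkn1a in ∆CT against DKO (0.225 with insulin libraries, and -0.055 to 0.023 over the fits without 1 library, with 0.023 without DKO library 3 or ∆CT library 2) and for Igf2 in JMO against DKO (-0.031 to 0.431 over those fits, the former without JMO library 1), none of them called. Other size factors, unrounded counts and a minimum of 10 counts left every count within 1.5 times. Replicate numbers did not pair the libraries: residuals of libraries with the same number correlated above 0.1 in 0 of 100 pairs, and 7 of 26 libraries were closest to their own number. The replicate block gave 2 for JMO against DKO and left the other counts within 1.5 times. Igf2 and Mest rest on few counts, and depth limits what can be said of the 6 genes below the filter. The cause of these changes was not tested.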
